A study of Mus musculus with 15 samples.

Results

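Pmp22, Mbp, Mag and S100b, a set of 4 genes of the nerve sheath, were followed in the gastrocnemius, the large calf muscle, of mice that were young, that were old on a normal diet or that were old after caloric restriction (CR). The members were all probe sets whose platform annotation gave 1 of these symbols alone, which came to 12 of the 22626 probe sets tested and 4 of the 12393 genes named. Mbp was read by 8 probe sets, S100b by 2, and Pmp22 and Mag by 1 each. The animals were 15 male C57BL/6NHsd mice kept 1 to a cage, with 5 mice and 5 arrays per group and no pooling. Young mice (5 months) and old mice (25 months) ate a normal diet of 84 kcal per week, and old CR mice (25 months) ate a diet with a 26% difference in calories, enriched in protein, vitamins and minerals. No group carried a mutation or a drug treatment, and the samples were whole muscle, so that the nerve branches inside it were measured together with muscle fibers, vessels and connective tissue.

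Motor and sensory axons that enter a muscle are wrapped by Schwann cells, which wind their membrane many times around the axon and press it into compact myelin, the insulation that lets impulses travel fast. Pmp22 encodes peripheral myelin protein 22, a membrane protein of compact myelin whose dosage matters for inherited neuropathies and which fibroblasts and other cells also make. Mbp encodes myelin basic protein, which joins the inner faces of the membrane, and its locus gives several transcripts. Mag encodes an adhesion protein of the innermost myelin layer that faces the axon, and S100b encodes a calcium-binding protein by which Schwann cells are commonly marked. The brain's myelin is made by oligodendrocytes with some of the same genes, but a muscle holds none of these cells.

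The only member probe set that passed the test with age was 1 of the 8 of Mbp, 1451961_a_at. It fell in old muscle and rose with CR to a level near that of young muscle. Pmp22 was lower in every old and every old CR mouse than in any young mouse, although its adjusted p did not pass 0.05. The brightest probe set of Mbp and those of Mag and S100b had overlapping groups in all 3 comparisons. Against old mice on the normal diet, CR also went with a fall of another Mbp probe set, 1436201_x_at, so that the Mbp probe sets did not move together.

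Values are linear intensities as deposited, on arrays scaled to the same trimmed mean, and differences are log2 with their standard error (SE). Adjusted p-values came from limma over all 22626 probe sets, and a probe set was called at an adjusted p under 0.05. The 12 probe sets covered a wide range of signal. Their mean intensity lay between the percentiles 31.6 and 95.4 of all probe sets. Of the 12, 7 were among the brightest 11313, namely Pmp22, Mag and 5 of Mbp, whereas both S100b probe sets and 3 of Mbp were dimmer. Probe sets differ in brightness for reasons of sequence, so that no gene's level was set against another's. The table held no detection calls or background level, so precision rests on 5 arrays per group, and how far a dim probe set stood above background is not known.

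Pmp22, the compact myelin protein, had intensities of 2588, 3157, 3060.3, 3035 and 3163 in young replicates 1 to 5. In old replicates 1 to 5 it had 2451, 2105, 1867, 2046 and 1838, and in old CR replicates 2, 3, 5, 6 and 7 it had 2303, 1784, 2288, 2385 and 1761. The lowest young mouse thus lay above the highest old mouse and the highest old CR mouse, and the old and old CR groups overlapped almost fully. The means were 3001 ± 237 in young, 2061 ± 246 in old and 2104 ± 305 in old CR muscle (SD, n = 5 each). The log2 difference between old and young was -0.55 (SE 0.13, 95% interval -0.82 to -0.27), a level 1.46-fold lower, with an adjusted p of 0.0804 from limma and an exact permutation p of 0.00794, two-sided, the smallest that 5 against 5 allows. Old CR mice differed from young mice by -0.52 (SE 0.13, adjusted p = 0.134) and from old mice by 0.02 (SE 0.13, 95% interval -0.25 to 0.30, adjusted p = 0.935). Pmp22 passed the threshold in old against young muscle when only the brightest 11313 probe sets were tested (adjusted p = 0.0252), with a variance trend (0.0259), with array weights (0.0339) and without young replicate 3 (0.0464). It did not pass with median centering (adjusted p = 0.129), with the 2 groups fitted alone (0.152), with the replicate number as a block (0.266) or in the other 14 fits that left out an array, whose adjusted p-values reached 0.186. In a whole muscle a lower intensity may come from fewer cells of a type or from less RNA per cell, which cannot be told apart here.

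**Figure D1:**
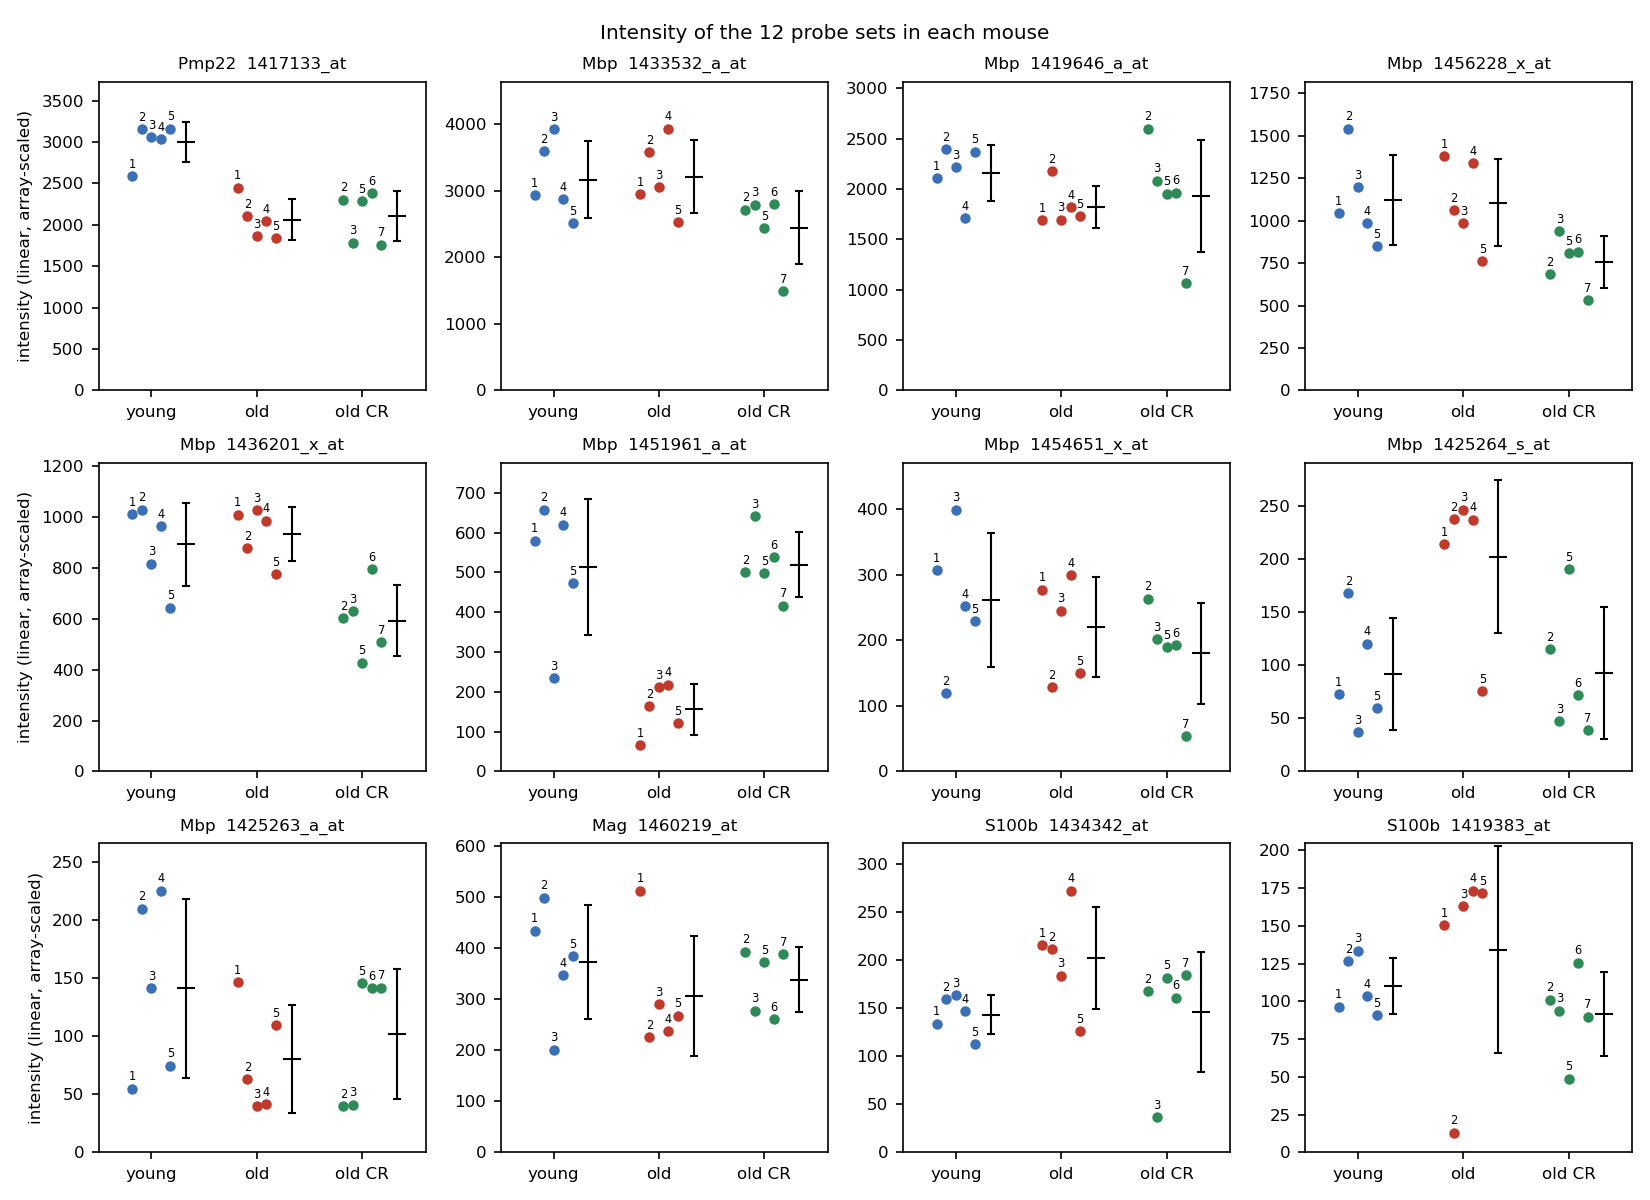
Linear intensity (vertical axes, from 0) of the 12 member probe sets in young, old and old CR mice, 1 panel per probe set, with each point a mouse numbered by replicate and the bar the mean ± SD. Pmp22 lies between 2588 and 3163 in young and between 1761 and 2451 in the other mice, and Mbp 1451961_a_at is lowest in the 5 old mice, at 65.8 to 218.

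Probes of this kind of array are designed near the 3' end of transcripts, and where the single Pmp22 probe set lies on them was not checked here. RefSeq (GRCm38.p6) placed 4 start windows for Pmp22, 3 for Mag and 1 for S100b, and the 250 bases before each start were searched for CpG dinucleotides and for letters to which SOX proteins such as the Schwann cell factor Sox10 are known to bind (ACAAAG and ACAATG, on both strands). The first and the last Pmp22 windows are shown because they differ most in composition among the starts of this gene, with each CG in capitals. The first lies at chr11:63128732-63128981 and the last at chr11:63132553-63132802, both on the plus strand.
Pmp22, first start window: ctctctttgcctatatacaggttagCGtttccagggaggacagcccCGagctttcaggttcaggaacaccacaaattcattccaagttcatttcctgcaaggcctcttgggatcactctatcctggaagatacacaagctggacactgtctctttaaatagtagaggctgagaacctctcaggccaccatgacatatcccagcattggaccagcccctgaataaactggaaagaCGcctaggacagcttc
Pmp22, last start window: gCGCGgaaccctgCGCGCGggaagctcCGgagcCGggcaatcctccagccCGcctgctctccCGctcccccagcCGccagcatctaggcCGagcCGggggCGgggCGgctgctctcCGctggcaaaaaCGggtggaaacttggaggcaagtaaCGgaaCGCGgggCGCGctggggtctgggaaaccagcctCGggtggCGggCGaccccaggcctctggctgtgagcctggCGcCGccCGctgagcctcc
The first window held 3 CG dinucleotides and 48.8% G and C, and the last held 27 and 73.6%, against a median of 6 CG and quartiles of 2 and 16 over 32851 windows of the same length. None of the 4 Pmp22 windows held either SOX sequence. The first Mag window, at chr7:30914923-30915172 on the minus strand, held ACAAAG once, as CTTTGT at base 184, and is shown with those letters in capitals.
Mag, first start window: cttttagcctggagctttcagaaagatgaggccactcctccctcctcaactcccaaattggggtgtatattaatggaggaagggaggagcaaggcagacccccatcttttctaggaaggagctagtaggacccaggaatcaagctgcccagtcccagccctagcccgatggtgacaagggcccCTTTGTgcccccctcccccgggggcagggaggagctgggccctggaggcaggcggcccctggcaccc
The same letters stood in the overlapping next window of Mag, but in neither its last window nor that of S100b. ACAAAG on either strand was in 16.5% of all windows and ACAATG in 10.7%, so that a match is a description of these letters and no sign of binding.

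The Mbp probe set 1451961_a_at, at the percentile 66.6 by its mean over all mice, had intensities of 580.0, 658, 235, 620.3 and 473 in young replicates 1 to 5. In old replicates 1 to 5 it had 65.8, 165, 212, 218 and 121, and in old CR replicates 2, 3, 5, 6 and 7 it had 501, 642, 498, 539 and 416. All 5 old mice lay below all 10 others, but young replicate 3 lay just above the highest old mouse and far below the other young mice. The mean fell from 513 ± 170 in young to 156 ± 64.1 in old muscle (SD, n = 5 each). In old mice that mean was below the median intensity of every array (200.6 to 243.5), so the size of the differences rests on low values. The log2 difference was -1.75 (SE 0.34, 95% interval -2.47 to -1.03), 3.37-fold lower, with an adjusted p of 0.0464 from limma and an exact permutation p of 0.00794. With CR it rose to 519 ± 81.9, a log2 difference of 1.84 from old mice on the normal diet (SE 0.34, 95% interval 1.12 to 2.56, adjusted p = 0.0120), 3.59-fold higher. Between old CR and young mice it was 0.09 (95% interval -0.63 to 0.81, adjusted p = 0.946), an interval that still spans differences of over 1.5-fold. The fall with age did not pass when any array but young replicate 3 was left out, with adjusted p-values of 0.00257 without that mouse and of 0.0570 to 0.129 otherwise. The rise with CR passed with each of the 15 arrays left out in turn (log2 1.56 to 1.99).

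The other Mbp probe sets gave a different picture. The brightest, 1433532_a_at, had 2932, 3593, 3925, 2869.9 and 2514 in young replicates 1 to 5. In the same order it had 2952, 3577, 3057, 3934 and 2531 in old mice and 2714, 2789.9, 2435, 2796 and 1493 in old CR mice. Young and old mice overlapped over nearly their whole range, with means of 3167 ± 576 and 3210.4 ± 550 (SD, n = 5 each) and a log2 difference of 0.02 (SE 0.20, 95% interval -0.40 to 0.44, adjusted p = 0.973). Old CR mice averaged 2445 ± 553, which was -0.41 from old mice (SE 0.20, 95% interval -0.83 to 0.01, adjusted p = 0.237), and replicate 7 was the lowest of them.

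Probe set 1436201_x_at had intensities of 1010.1, 1028, 816, 963 and 643 in young and 1009, 877, 1025, 985 and 774 in old replicates 1 to 5, with no difference beyond the spread (log2 0.08, SE 0.18). In old CR replicates 2, 3, 5, 6 and 7 it had 602, 629, 427, 794 and 508. Only CR replicate 6 reached into the range of old mice, and the mean fell from 934 ± 106 to 592 ± 138 (SD, n = 5 each). The log2 difference was -0.68 (SE 0.18, 95% interval -1.07 to -0.30, adjusted p = 0.0452), and the exact permutation p was 0.0159. This call was kept in 4 of the 15 fits that left out 1 array, with adjusted p-values from 0.0348 to 0.0972. Its name marks it, like 1456228_x_at and 1454651_x_at, as a probe set with probes that may bind other transcripts too.

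Among the remaining Mbp probe sets, 1419646_a_at ranged from 1709 to 2395 in young, from 1691 to 2178 in old and from 1063 to 2601 in old CR mice, and its 3 log2 differences lay between -0.24 and 0.03. For 1456228_x_at the old CR mice, at 532 to 937, lay lower than old mice, at 762 to 1382, by a log2 difference of -0.54 (SE 0.21, adjusted p = 0.149). The dim 1425264_s_at had means of 91.7 ± 52.6 in young, 202 ± 71.9 in old and 92.9 ± 62.1 in old CR mice (SD, n = 5 each). Its log2 differences of 1.22 with age (adjusted p = 0.255) and -1.25 with CR (adjusted p = 0.159) had the opposite signs to those of 1451961_a_at. The other dim probe sets, 1454651_x_at and 1425263_a_at, differed by -0.22 and -0.80 with age, and did not pass. The annotation did not say which Mbp transcripts each probe set reads.

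The gap between 1451961_a_at and its own gene was measured within each array, which removes anything that scales the whole array. Both contrasts were chosen after the values were seen, and their p-values, adjusted over 6 tests, describe the gap and are no independent evidence of it. The log2 intensity of 1451961_a_at minus the mean of the other 4 Mbp probe sets among the brightest 11313 was -1.72 ± 0.65 in young, -3.43 ± 0.70 in old and -1.19 ± 0.18 in old CR mice (SD, n = 5 each). It was -1.46, -1.55, -2.86, -1.24 and -1.51 in young and -4.63, -3.32, -2.83, -3.01 and -3.39 in old replicates 1 to 5, so that young replicate 3 alone reached into the old range. Old CR mice lay between -1.38 and -0.96, above every other mouse but young replicate 4, which lay within their range. The difference between old and young was -1.71 (exact permutation, adjusted p = 0.0317), and between old CR and old it was 2.24 (exact permutation, adjusted p = 0.0238). Old CR mice exceeded young mice by 0.53 (exact permutation, adjusted p = 0.0381), and by 0.25 without young replicate 3. Between these groups 1451961_a_at itself differed by 0.09, whereas the other 4 Mbp probe sets differed by -0.39, -0.21, -0.57 and -0.60. Against Pmp22 in place of the Mbp probe sets, the differences were -1.21, 1.82 and 0.61 in the same order (exact permutation, adjusted p = 0.0397, 0.0238 and 0.0357). Pmp22 itself differed by -0.52 between old CR and young mice.

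**Figure D2:**
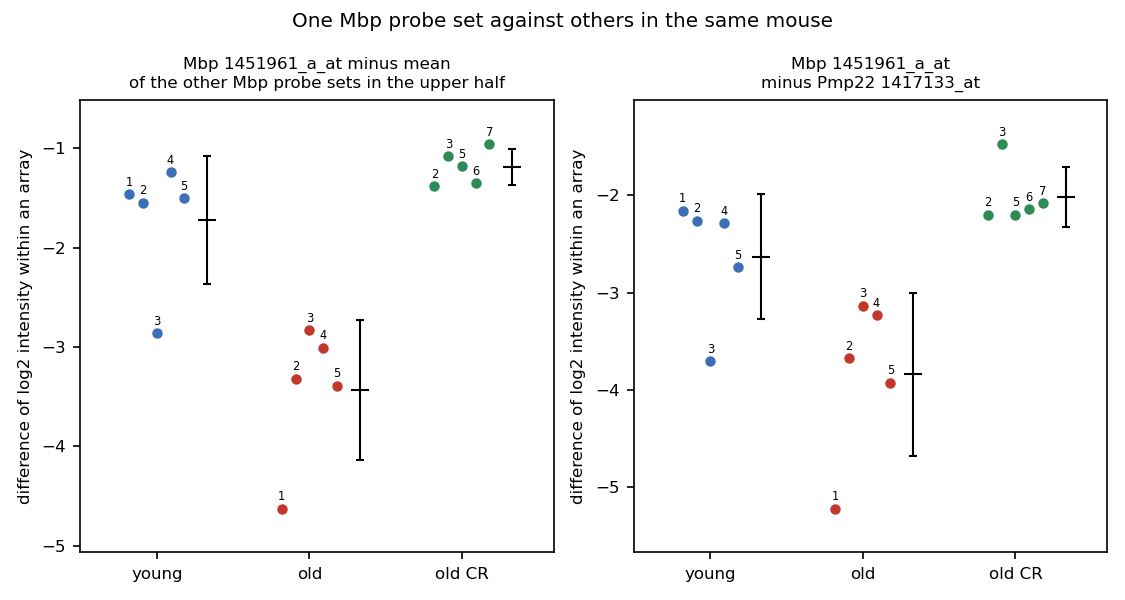
Difference of log2 intensity within each array (vertical axis) between Mbp 1451961_a_at and the mean of the other 4 bright Mbp probe sets, and between it and Pmp22, with each point a mouse numbered by replicate and the bar the mean ± SD. The old mice lie at -4.63 to -2.83 in the first, and young replicate 3, at -2.86, is the 1 mouse of the other groups within that range.

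The arrays also differed in a control measure in the same way. For Gapdh and Actb, control probe sets near the 3' and the 5' end of the transcript show how far labelled RNA reached back from the tail. The 3' minus 5' log2 difference of Gapdh was 0.25 ± 0.10 in old, -0.04 ± 0.19 in young and -0.21 ± 0.12 in old CR mice (SD, n = 5 each). Old CR mice were lower than old mice by a difference of -0.46 for Gapdh and -0.39 for Actb (exact permutation, adjusted p = 0.0159 for both). Old exceeded young mice by 0.29 for Gapdh and 0.33 for Actb (exact permutation, adjusted p = 0.0595 and 0.0159). The mean of both genes ran from 0.05 to 0.27 in old and from -0.42 to -0.21 in old CR mice, and in young mice from -0.28 to -0.18 except in replicate 3, at 0.06. Young replicate 3, the young mouse with the lowest 1451961_a_at, was thus also the young mouse nearest to the old group in this measure. With that measure as a covariate, 1451961_a_at had -0.85 with age and 0.60 with CR (adjusted p = 0.820 and 0.908), 1436201_x_at had -0.42 with CR (adjusted p = 0.890), and no member was called. Pmp22 had -0.74 with age in that fit (adjusted p = 0.482), against -0.55 without the covariate. Between old CR and young mice Pmp22 had -0.45 in that fit (adjusted p = 0.314), against -0.52 without it. The measure separates old from old CR mice, and from all young mice but replicate 3. Its part and that of diet or of age therefore cannot be told apart for these probe sets in the comparisons with old mice on the normal diet.

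Mag, the adhesion protein at the axon, had intensities of 434, 499, 201, 348 and 385 in young and 513, 226, 291, 237 and 268 in old replicates 1 to 5. In old CR replicates 2, 3, 5, 6 and 7 it had 393, 277, 373, 260.4 and 388. Old replicate 1 was the highest of all 15 mice, the other 4 old mice lay within the young range, and the 3 groups overlapped. The log2 differences were -0.29 with age (SE 0.26, 95% interval -0.86 to 0.28, adjusted p = 0.635), 0.19 with CR (SE 0.26, 95% interval -0.38 to 0.76) and -0.10 between old CR and young mice.

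S100b, the Schwann cell marker, was dim. Its brighter probe set, 1434342_at, had 134, 159.5, 164, 147 and 113 in young, 216, 212, 184, 272 and 126 in old and 168, 36.5, 182, 161 and 184 in old CR mice. Of the old mice, 4 lay above all young mice, but replicate 5 lay within their range, and the log2 difference was 0.46 (SE 0.38, 95% interval -0.36 to 1.28, adjusted p = 0.593). The other probe set, 1419383_at, averaged 110.2 ± 18.8 in young, 134 ± 68.4 in old and 91.8 ± 27.8 in old CR mice (SD, n = 5 each), with 13.0 in old replicate 2 and 150.5 to 173 in the other old mice. Because of that array its log2 difference with age was -0.14, and without it 0.59, so that 1 mouse set its sign.

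Counted over the 12 probe sets, 0 rose and 1 fell with age, against 0.265% called over all probe sets from limma. At an unadjusted p under 0.05 they were 3 of 12 (15.5% of all), and the groups did not overlap in 2, Pmp22 and 1451961_a_at (3.61% of all). With CR 1 rose and 1 fell against old mice, beside 4.87% called over all, 4 of 12 had an unadjusted p under 0.05 (21.9% of all) and 1 did not overlap (8.89% of all). Between old CR and young mice 0 were called (0.0884% of all), 3 had an unadjusted p under 0.05 from limma (12.1% of all) and Pmp22 alone did not overlap (3.57% of all). The median log2 difference of the 12 was -0.18, -0.28 and -0.35 in these comparisons, against -0.06, 0.06 and -0.01 over all probe sets. The 8 Mbp probe sets share a gene and the comparisons share their mice, so that none of these counts is over independent items.

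**Figure D3:**
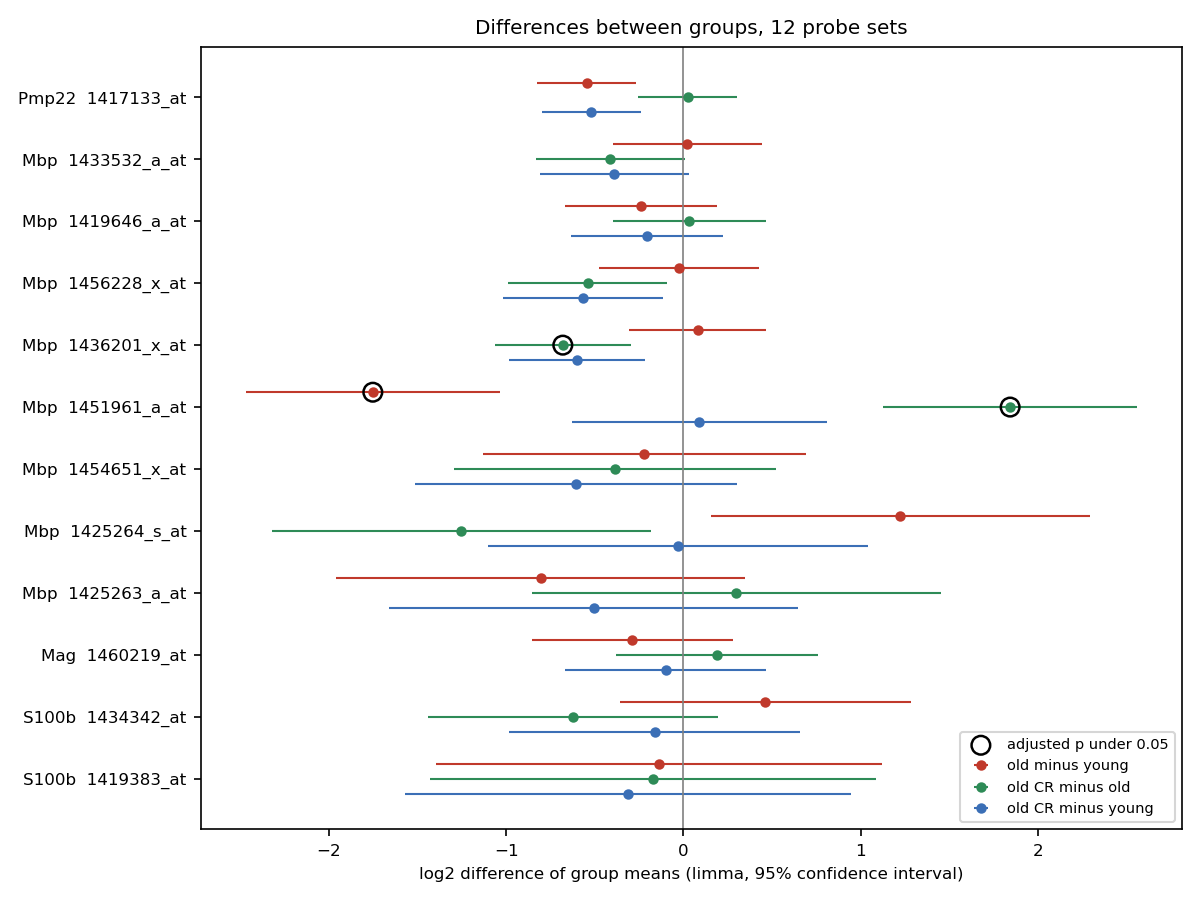
Log2 difference of each of the 12 member probe sets (horizontal axis) in the 3 comparisons, with limma's 95% interval as a line and a circle around the points with an adjusted p under 0.05. The circled points are Mbp 1451961_a_at at -1.75 with age and 1.84 with CR and Mbp 1436201_x_at at -0.68 with CR.

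Between mice of 1 group the 4 genes, each by its brightest probe set, did not vary together beyond what permutation gave. After removal of the group means, Pearson's r over 15 mice ran from -0.43 for Mbp and Mag (Spearman's rho -0.47) to 0.48 for Pmp22 and S100b (rho 0.30), with permutation p-values of 0.113 and 0.142 and, over the 6 pairs, an adjusted p of 0.425 for both. Without the 2 mice farthest from the median of the first gene of the pair, Mbp or Pmp22, r was -0.55 and 0.57. Mice that stood apart in the second gene were not removed by this rule. The probe sets most like the mean of the 4 genes over the 15 mice were those of Dock5 (r = 0.89), Twsg1 (0.85), Col5a1 (0.80), Trim41, Timm10, Rbbp4 and Il2rb (0.79 each) and Ptdss1 (0.77), out of 10386 bright probe sets with 1 symbol. Col5a1, a fibrillar collagen chain, had 939 in young, 644 in old and 617 in old CR mice. After removal of the group means they were Ppif, Dock5, C920021L13Rik, Osbpl11, Bmpr1a, Mrps9, Dapk2 and Slc31a2, with r from 0.78 to 0.86. These are descriptions over mice that share groups and array scaling, and 1% of the probe sets had r above 0.64 by either measure.

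Myelin and nerve genes were also read by their brightest probe set from lists of 125 genes, the 4 members included, 108 of which were measured. Measured here means that the annotation given had a probe set with that symbol alone. A gene not measured may still be on the array, as myelin protein zero is by the paper's own list. Of the compact myelin list 3 of 6 genes were measured, namely Pmp22, Mbp and Mal, and by these probe sets none was called in any comparison. Mal, the 1 gene of them that is not a member, a membrane protein of compact myelin, had 567 ± 68.4 in young, 451 ± 80.1 in old and 480.4 ± 61.1 in old CR mice (SD, n = 5 each), with a log2 difference of -0.34 with age (adjusted p = 0.299). Besides Mag, 7 of 11 genes of non-compact myelin and axon contact were measured and none was called. Their median was -0.32 with age, 0.16 with CR and -0.13 between old CR and young mice, against -0.05, 0.02 and -0.03 over all genes. Gjc3 and Gjb1, which encode gap junction proteins, were dim, with log2 differences of -1.23 and -0.60 with age (adjusted p = 0.273 and 0.385). Cnp, an enzyme of non-compact myelin, had 498 in young, 606 in old and 438 in old CR mice (log2 -0.50 with CR, adjusted p = 0.0810), so that, unlike Pmp22, it was highest in old mice. Cadm4, an adhesion protein of the inner wrap, had 408, 315 and 377 (log2 -0.42 with age, adjusted p = 0.297).

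Besides S100b, 10 of 11 Schwann cell markers were measured and none was called, with medians of -0.09, 0.17 and 0.0032 in these comparisons. Cryab, a small heat shock protein that muscle fibers also make in quantity, gave 55.8% to 80.7% of their summed intensity on an array. Without Cryab and Art3, also bright, the sum of the other 8 ran from 1557 to 1940 in young, from 1479 to 2061 in old and from 1700 to 2026 in old CR mice. The smallest p with age was that of Scn7a, a dim sodium channel gene, with means of 13.0 in young, 61.2 in old and 26.0 in old CR mice. Its young and old mice did not overlap (log2 1.85, adjusted p = 0.139), and with CR the log2 difference was -1.33 (adjusted p = 0.187). Ngfr, the low-affinity neurotrophin receptor, had 134, 203 and 124 (log2 -0.85 with CR, adjusted p = 0.164). Kcna1, also of this list, had the opposite signs, with -0.41 with age and 1.12 with CR (adjusted p = 0.236). With S100b counted, 4 of the 11 markers were higher and 7 lower with age, and 7 were higher and 4 lower with CR. Sox10, the factor that defines the lineage, had 454 ± 52.0 in young, 452 ± 65.4 in old and 518 ± 52.7 in old CR mice (SD, n = 5 each), without a call. Of the 8 transcription factors of Schwann cells none was called, with medians of 0.24, -0.46 and 0.09. Egr2, which drives myelin genes, had 114, 112 and 63.4 (log2 -1.01 with CR, adjusted p = 0.187), and Jun, of the repair state, had 1198, 1624 and 953 (log2 -0.70 with CR, adjusted p = 0.184). Jun is made by many other cell types as well.

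Among 11 measured of 13 ligands and receptors of Schwann cells, none was called with age or between old CR and young mice, and against old mice CR went with 1 rise and 2 falls, beside the 4.87% of all probe sets called. Lpar1, a receptor for lysophosphatidic acid, rose from 422 ± 53.7 to 596 ± 48.1 (log2 0.50, adjusted p = 0.0435). Dag1, which encodes dystroglycan and is made by muscle fibers as well, fell from 4058 ± 359 to 2496 ± 176 (log2 -0.70, adjusted p = 0.0162), and Itga6, a laminin receptor subunit, from 586 ± 176 to 350.3 ± 53.4 (log2 -0.71, adjusted p = 0.0454; SD, n = 5 each). The medians were -0.22, -0.25 and -0.23. Of 10 measured genes of myelin lipid synthesis none was called. With age 5 were higher and 5 lower (median -0.14), and with CR also 5 and 5 (median 0.01). Fasn, the fatty acid synthase that fat cells also make, had 1978 ± 693 in young, 833 ± 659 in old and 2182 ± 201 in old CR mice (SD, n = 5 each). Its log2 differences were -1.79 with age (adjusted p = 0.170) and 1.99 with CR (adjusted p = 0.0714). Fa2h and Fdft1, also of this list, had the opposite signs, at 0.55 and 0.35 with age and -0.51 and -0.34 with CR.

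The axon list had 11 of 11 genes measured, and Uchl1, an abundant neuronal hydrolase, rose with CR from 177 ± 47.7 to 371 ± 153 (SD, n = 5 each, log2 1.03, adjusted p = 0.0379). No other gene of the list was called in any comparison, and Thy1, a surface protein of neurons and fibroblasts, had 688 in young, 486 in old and 476 in old CR mice (log2 -0.52 with age, adjusted p = 0.115). For the perineurium, the layer around each nerve bundle, 6 of 7 list genes were measured, again in whole muscle. With CR 1 of the 6 was called, beside 4.87% of all probe sets. This was Krt19, a keratin, which fell from 79.6 to 32.2 (log2 -1.41, adjusted p = 0.0271), both dim. With CR 2 of these genes were higher and 4 lower, and Slc2a1 had 0.49 (adjusted p = 0.153). Of the oligodendrocyte genes 5 of 7 were measured and none was called. Mog, which defines myelin of the brain and spinal cord, lay at 5.84 in young, 6.18 in old and 6.68 in old CR mice, at the percentile 0.575 of all probe sets, and Olig2 lay at 12.4, 5.16 and 19.8.

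**Figure D4:**
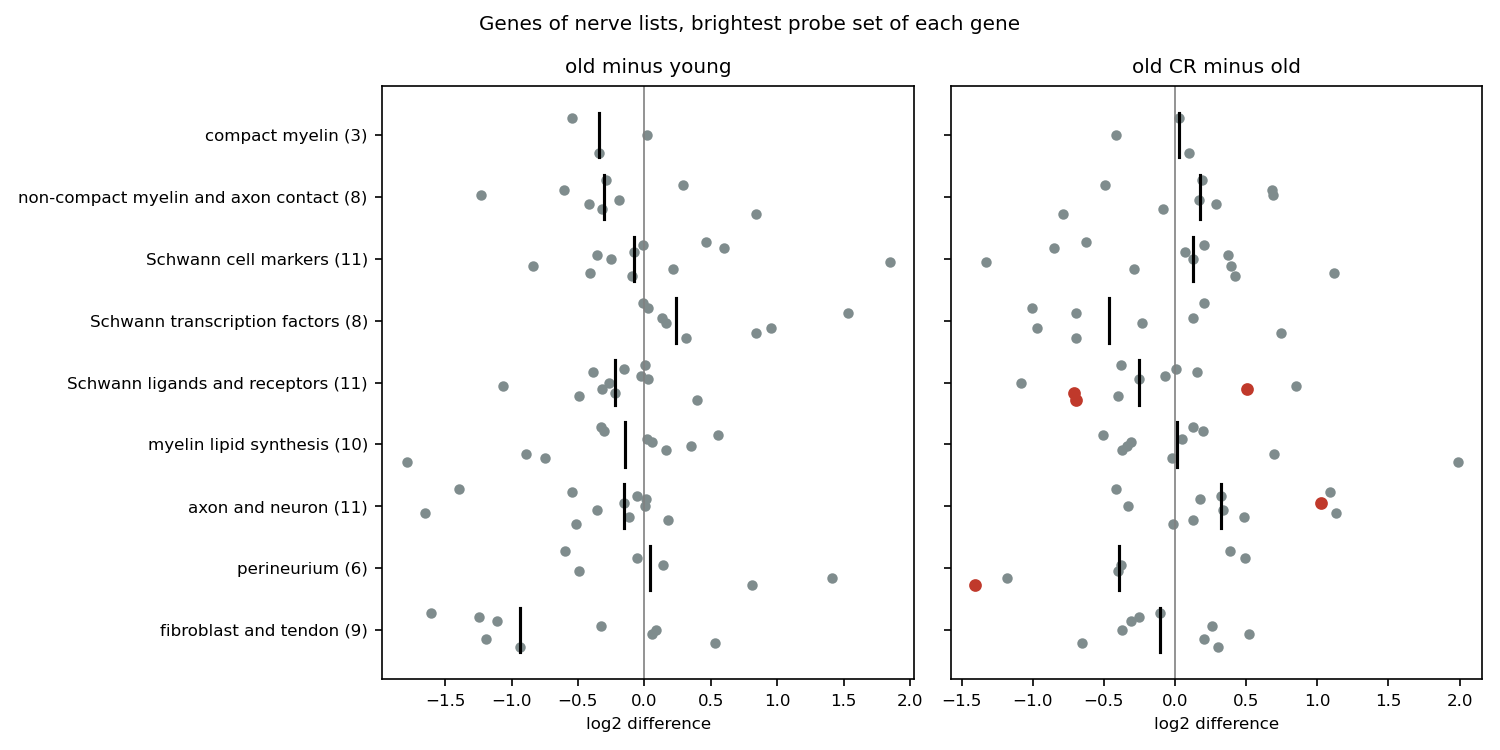
Log2 difference (horizontal axis) of each measured gene of the nerve lists, each by its brightest probe set, in old against young and in old CR against old mice. Red points are genes with an adjusted p under 0.05, and a black bar marks each list's median. The lists include the members, so that the compact myelin points are Pmp22, Mbp and Mal, and the calls lie in the comparison of old CR with old mice.

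The muscle label held, since Ckm and Acta1, the creatine kinase and actin of muscle fibers, lay at the percentiles 99.98 and 99.96 of all probe sets, and the 9 genes of the muscle fiber list summed to between 179898 and 290407 on every array. With CR 1 of these 9, the fast myosin Myh1, was called higher (log2 0.52, adjusted p = 0.0297), beside 4.87% of all probe sets called. All 9 were higher with CR, 6 of them at an unadjusted p under 0.05 from limma (21.9% of all probe sets in either direction). With age all 9 were lower and 0 were called. Of the fibroblast and tendon genes 9 of 9 were measured, and 6 were lower and 3 higher with age. Their sum ran from 24598 to 37903 in young, from 18889 to 29052 in old and from 16568 to 22077 in old CR mice, with a median log2 difference of -0.94 with age, -0.10 with CR and -0.63 between old CR and young mice. By limma none was called with age. At an unadjusted p under 0.05, 5 were lower in old muscle, where 15.5% of all probe sets passed in either direction, and the smallest p-values were those of Col1a1 (log2 -1.61, adjusted p = 0.0757) and Col1a2 (log2 -1.24, adjusted p = 0.0556). Dcn, Lum and Scx, also of this list, had 0.09, 0.06 and 0.53 with age, and Lum had 0.58 between old CR and young mice. Between old CR and young mice Col1a2 fell (log2 -1.49, adjusted p = 0.0472). Fibroblasts make Pmp22 too, and their part in the lower Pmp22 was not tested. None of the adipocyte (6 of 8 measured), macrophage (7 of 7) and endothelial genes (6 of 6) was called. Adipoq, the hormone of fat cells, had -1.19 with CR (adjusted p = 0.0693), Csf1r, a macrophage receptor, -0.58 (adjusted p = 0.0589), and Pecam1, of the vessel lining, 0.79 (adjusted p = 0.0529). Other genes of the same lists had the opposite sign with CR, namely Retn (0.59), Cd68 (0.29) and Cdh5 (-0.18). With CR 2 adipocyte genes were higher and 4 lower, 1 macrophage gene higher and 6 lower, and 4 endothelial genes higher and 2 lower. The medians were -1.04, -0.29 and 0.08.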

How the data were processed

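RNA from the gastrocnemius of 15 mice was hybridized to MOE430A arrays, 1 per mouse, and the authors averaged repeated scans. The deposited table gives a single linear intensity for every probe set on each array, which the authors scaled array by array (trimmed mean of 500.0 after 2% at each end, medians of 200.6 to 243.5). The submitters' processing notes name MAS5 and RMA, without versions, and the values have the properties of MAS5 and not those of RMA. The paper's model for RMA values was not run. Intensities were converted to log2 with no pseudocount, 64 control probe sets were left out, and 22626 were tested by limma 3.58.1 under R 4.3.3 (3 groups in 1 fit, eBayes without trend, prior degrees of freedom 2.17) with Benjamini-Hochberg adjustment over all of them in each comparison. Groups were taken from the labels. Scaling to a trimmed mean can leave array-wide shifts at low and middle intensities, so median centering and quantile normalization were among the alternatives.

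Single values were compared by exact permutation tests, two-sided, and correlations by 100000 permutations within groups, with SciPy 1.17.1, NumPy 2.4.6 and pandas 2.3.3 under Python 3.11.15, and figures were drawn with Matplotlib 3.10.9. The members and gene lists were chosen with earlier results of these data known. Named were all member probe sets, the called genes of each list and, where a comparison had under 3, some of its 3 genes with the smallest p, and the 8 probe sets most alike by each measure; Sox10, Cryab, Art3, Ckm, Acta1, Mog, Dcn, Lum, Scx and the levels of Col5a1 were added after their values were seen. Genes outside the annotation given are not analysed here. Simulated data with the values of old and young mice were also fitted (22626 probe sets), and 43% of 2-fold and 75% of 4-fold differences were found. Alternatives were the 11313 probe sets of highest mean intensity, an adjusted p under 0.10, a pseudocount of 16, median centering, quantile normalization, the 2 groups compared alone, a block for the replicate number, array weights, robust eBayes with a trend, the 3' minus 5' covariate and each array left out. Those of the correlations, contrasts and control measure were added after seeing the data.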

Additional observations from a re-analysis of the deposited data

Results flagged for a closer look

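Of 36 groups of 5 mice (12 probe sets in 3 groups), 7 held a mouse set apart from the other 4 by Dixon's test, where chance gives about 1 in 20. In bright probe sets, Pmp22 was 2588 in young replicate 1 against 3035 to 3163 in the other young mice, so that the lowest young mouse was the one nearest to the old group. Mbp 1433532_a_at was 1493 in old CR replicate 7 (others 2435 to 2796), and Mbp 1419646_a_at was 2178 in old replicate 2 (others 1691 to 1820). Mag was 513 in old replicate 1, above its 226 to 291 in the other old mice and above every young mouse. In dim probe sets, Mbp 1425264_s_at was 75.7 in old replicate 5 (others 214 to 247). S100b was 36.5 in old CR replicate 3 at 1434342_at (others 161 to 184) and 13.0 in old replicate 2 at 1419383_at (others 150.5 to 173), and in neither of these mice did the other S100b probe set stand apart. No mouse was set apart in more than 1 probe set except old replicate 2.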

How the results depend on the processing

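The 1 member call with age became 2 at an adjusted p under 0.10, among the brightest 11313 probe sets, with the variance trend and with array weights, and 0 with median centering, quantile normalization, 2 groups only, the replicate block and the 3' minus 5' covariate, and ran from 0 to 2 with an array left out. The 2 calls with CR became 1 with quantile normalization and with 2 groups only, 0 with the block and with the covariate, and 1 to 2 with an array left out. Between old CR and young mice the 0 calls became 1, Pmp22, among the brightest and with the trend (adjusted p = 0.0456 and 0.0459), and stayed 0 to 0 with an array left out. The rise of Mbp 1451961_a_at with CR was 1.94 under the replicate block (adjusted p = 0.172) and its age difference -1.75 (adjusted p = 0.253). Replicate numbers did not pair the mice (11 same-number pairs, r of -0.27 to 0.08). None of the called differences turned sign, but others did. With median centering these were Pmp22 with CR (-0.064), Mbp 1419646_a_at with CR (-0.055) and Mbp 1456228_x_at with age (0.065). Mbp 1433532_a_at with age was -0.021 with quantile normalization, and with array weights Mbp 1456228_x_at with age was 0.033 and Mbp 1451961_a_at in old CR against young -0.022. With a pseudocount of 16, S100b 1419383_at with age was 0.000614. With the replicate block, Mbp 1454651_x_at was 0.27 with CR and 0.050 against young, Mbp 1425264_s_at against young 0.51, Mbp 1425263_a_at with CR -0.17, and Mag against young 0.070. With the covariate, Mbp 1433532_a_at was -0.50 with age and 0.30 with CR, Mbp 1456228_x_at with CR 0.25, Mbp 1436201_x_at with age -0.11, Mbp 1451961_a_at in old CR against young -0.24, and Mbp 1454651_x_at with CR 1.22. There Mag was 0.016 with age and -0.23 with CR, and S100b 1419383_at 1.03 with CR and 0.013 against young. The correlation of Mbp and S100b (-0.01) was 0.032 with median centering, 0.0088 with quantile normalization and 0.0092 with the pseudocount.

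With each array left out, differences with age ran from -0.057 to 0.10 for Mbp 1433532_a_at, -0.034 to 0.14 for Mbp 1436201_x_at, -0.12 to 0.10 for Mbp 1456228_x_at and -0.34 to 0.59 for S100b 1419383_at. Those with CR ran from -0.023 to 0.089 for Pmp22, -0.088 to 0.24 for Mbp 1419646_a_at, -0.57 to 0.0090 for Mbp 1454651_x_at and -0.90 to 0.038 for S100b 1419383_at. Between old CR and young they ran from -0.17 to 0.20 for Mbp 1451961_a_at, -0.35 to 0.24 for Mbp 1425264_s_at, -0.31 to 0.020 for Mag and -0.30 to 0.29 for S100b 1434342_at. Correlations ran from -0.061 to 0.28 for Mag and S100b, -0.14 to 0.50 for Mbp and S100b and -0.15 to 0.32 for Pmp22 and Mag. The 3' minus 5' difference of Gapdh with age ran from 0.25 to 0.37. The contrasts of Mbp 1451961_a_at with CR kept their call in all 15 such fits, at 1.95 to 2.39 against Mbp and 1.47 to 1.99 against Pmp22. Those with age kept it in 13 (-1.996 to -1.41) and 6 (-1.47 to -0.86), and those between old CR and young in 8 (0.25 to 0.65) and 9 (0.34 to 0.73). The causes of these changes were not tested. Both S100b probe sets and 3 of Mbp were dim, and Mbp 1451961_a_at was low in old mice. No background level was given, and 5 mice per group limit every interval.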
